A study of Mus musculus with 2 samples.

Results

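The genes described here are 8 mouse genes of bone mineralisation and its inhibitors: Alpl, Phospho1, Enpp1, Ank (also called Ankh), Bglap, Bglap2, Mgp and Fam20c. They were chosen by name from 21887 protein-coding genes on chromosomes 1 to 19, X and Y, and each was searched for RUNX2 peaks over its RefSeq span (GRCm38, also called mm10) and 100 kb beyond either end. RUNX2, a DNA-binding protein with a Runt domain, is needed for osteoblasts to form. Its positions on chromatin were profiled by CUT&Tag, in which an antibody directs the transposase Tn5 to cut DNA beside the bound protein. The cells were MC3T3-E1, a mouse line of osteoblast precursors, without treatment, as 1 group of 2 replicate libraries with no control library. No allele, agent or stage of differentiation is named for them, and separate cultures are not stated, so the spread between replicates may be technical. The deposited lists (26853 peaks for replicate 1, 27287 for replicate 2) hold positions and widths without height or read number, so depth is unknown. They hold called CUT&Tag positions and not RNA, so the labelled cell type could not be checked against marker expression. With no control library, whether a given peak marks bound RUNX2 was not tested.

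Mineral forms in bone when phosphate is released near matrix vesicles and collagen, while pyrophosphate blocks crystal growth. The phosphatases encoded by Alpl and Phospho1 release phosphate, and Alpl also removes pyrophosphate. Enpp1 makes pyrophosphate outside the cell and Ank encodes a membrane protein needed for its release. Bglap and Bglap2 are neighbouring copies of the osteocalcin gene, and Mgp encodes matrix Gla protein, an inhibitor of calcification that like osteocalcin depends on vitamin K. Fam20c encodes a kinase of the secretory pathway that phosphorylates matrix proteins.

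Promoter sequences are printed below for members with a peak on the bases just before the start of transcription. They are also printed for members that carried the letters RUNX proteins are known to prefer without a peak there. Each is the 250 bases before the annotated start (RefSeq, GRCm38.p6), written 5′ to 3′ on the strand of the gene. Capitals mark TGTGGT or TGCGGT, the RUNX core, and TGANTCA, the AP-1 core, on either strand, so that ACCACA is TGTGGT read from the other strand. Phospho1 had peaks of both replicates across this stretch and Fam20c had a replicate 1 peak on it, whereas Bglap and Enpp1 had none. Ank and Alpl, not printed, had neither a peak on this stretch nor any of these letters.
Phospho1, chr11:95824250-95824499, plus strand: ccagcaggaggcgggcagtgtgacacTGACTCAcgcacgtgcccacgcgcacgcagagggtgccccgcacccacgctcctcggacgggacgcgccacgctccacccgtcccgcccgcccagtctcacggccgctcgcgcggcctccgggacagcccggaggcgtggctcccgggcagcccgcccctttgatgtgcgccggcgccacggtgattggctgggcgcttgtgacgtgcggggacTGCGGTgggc
Fam20c, chr5:138754831-138755080, plus strand: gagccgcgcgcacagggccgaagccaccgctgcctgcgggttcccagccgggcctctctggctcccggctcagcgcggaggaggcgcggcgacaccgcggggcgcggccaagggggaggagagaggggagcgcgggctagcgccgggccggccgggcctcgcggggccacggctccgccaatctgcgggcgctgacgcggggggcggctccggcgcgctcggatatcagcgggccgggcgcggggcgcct
Bglap, chr3:88384467-88384716, minus strand: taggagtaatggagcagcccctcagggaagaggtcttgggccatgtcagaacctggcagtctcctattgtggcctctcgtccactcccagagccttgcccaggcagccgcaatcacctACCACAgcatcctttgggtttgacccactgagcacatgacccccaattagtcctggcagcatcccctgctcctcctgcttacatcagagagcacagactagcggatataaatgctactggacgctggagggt
Enpp1, chr10:24712160-24712409, minus strand: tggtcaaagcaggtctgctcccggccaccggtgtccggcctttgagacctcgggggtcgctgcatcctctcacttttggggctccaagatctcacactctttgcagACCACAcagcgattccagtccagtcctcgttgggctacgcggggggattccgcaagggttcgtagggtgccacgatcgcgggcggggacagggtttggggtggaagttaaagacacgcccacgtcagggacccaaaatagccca

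All 8 members had a shared region, meaning a place where peaks of both replicates overlapped by at least 1 bp, inside the gene or within 100 kb. Among all protein-coding genes 77.7% did, so being reached at this distance says little about a gene. The members split at shorter range. Mgp, Phospho1, Fam20c and Ank had a shared region within 1 kb of the gene (4 of 8, against 43.8% of protein-coding genes), and searching out to 20 kb added no other member. In Mgp and Phospho1 it reached into the gene itself (2 of 8, against 41.4%). Alpl, Enpp1, Bglap and Bglap2 had none within 10 kb (4 of 8 members had one, against 52.8% of protein-coding genes). Their nearest shared regions were 57.3 kb from Alpl, 42.0 kb from Enpp1, 25.4 kb from Bglap and 31.1 kb from Bglap2. By 50 kb all members but Alpl were reached (7 of 8, against 69.9%). Bglap and Bglap2 lie side by side and have the same 4 shared regions in reach, so the 8 genes are 7 loci. Counted by locus, 4 of 7 (57.1%) had a shared region within 10 kb, on the other side of the 52.8% from 4 of 8 genes, so neither count stands apart from protein-coding genes as a whole.

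**Figure D1:**
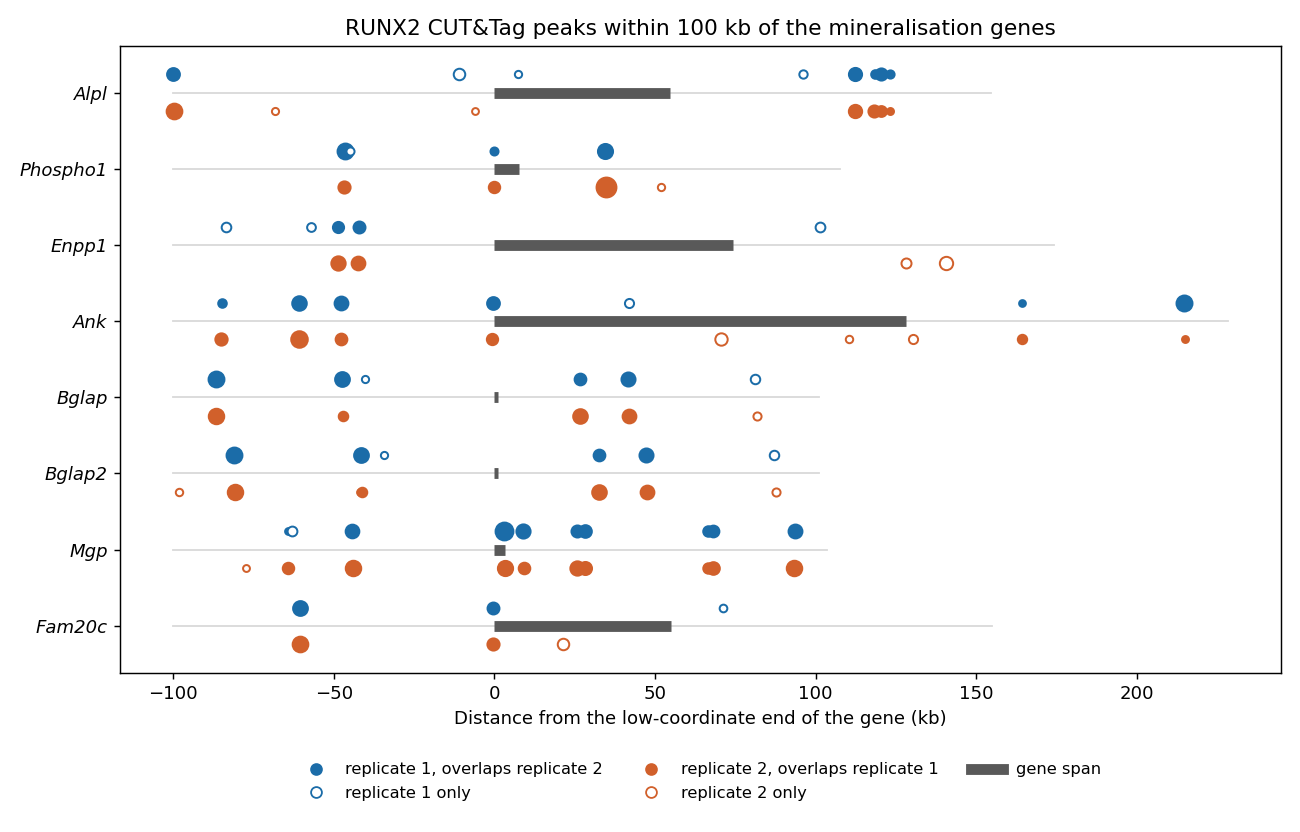
Peaks of each replicate around the 8 genes, one row per gene, against the distance in kb from the low-coordinate end of the gene; the dark bar is the gene, the area of each circle grows with peak width, and filled circles overlap a peak of the other replicate. Filled circles stand at an end of Mgp, Phospho1, Fam20c and Ank, while those of Alpl, Enpp1, Bglap and Bglap2 stand at least 25.4 kb from the gene.

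Around the members lay 43 peaks of replicate 1 and 44 of replicate 2. Of these, 31 in replicate 1 (72.1%, 95% Wilson interval 57.3 to 83.3, counting error only) and 32 in replicate 2 (72.7%, 58.2 to 83.7) overlapped a peak of the other list. Over all peaks the shares were 68.2% in replicate 1 and 67.2% in replicate 2, both within these intervals. The overlapping peaks formed 31 shared regions, 30 of them made of 1 peak from each list. The other 24 peaks, 12 from each list, had no counterpart. Taken singly, each list had a peak within 100 kb of 8 of 8 members, against 81.6% of protein-coding genes with replicate 1 and 82.0% with replicate 2. Within 10 kb each list reached 5 of 8 members, against 60.8% of protein-coding genes with either. Inside or across an end of the gene, replicate 1 had a peak at Alpl, Phospho1, Ank and Mgp, and replicate 2 at Phospho1, Ank, Mgp and Fam20c (4 of 8 each, against 47.4% with either list). The 24 peaks without a counterpart were narrow, with a median of 294.5 bp in replicate 1 and 223.5 bp in replicate 2, against 603 and 574.5 bp for the overlapping peaks of replicates 1 and 2. The whole lists were split alike. Their peaks without a counterpart had medians of 260.5 bp in replicate 1 and 256 bp in replicate 2. Their overlapping peaks had medians of 488 bp in replicate 1 and 493 bp in replicate 2.

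Phospho1 (chr11:95824500-95832140) encodes the phosphatase that works inside matrix vesicles. A shared region lay across its annotated start, and how many protein-coding genes have one there was not counted. On the promoter window, 250 bases before the start to 50 after it, 2 of 6 members had one. Among protein-coding genes with such a window 33.0% did. The replicate 1 peak there was 239 bp wide and ran from 233 bp upstream to 5 bp downstream of the start. The replicate 2 peak was 480 bp wide and ran from 374 bp upstream to 105 bp downstream, so it held the whole of the replicate 1 peak. The narrow replicate 1 peak was at the 20.7th percentile of width in its list and the replicate 2 peak at the 62.1st. Both peaks cover the TGACTCA at 224 bases and the TGCGGT at 10 bases before the start in the sequence printed above. A long noncoding gene, Gm38958, has its own annotated start under the same region, so the peak cannot be given to Phospho1 alone.

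Phospho1 had 2 further shared regions. One lay 46.0 kb upstream, 930 bp across in replicate 1 and 549 bp across in replicate 2, with Zfp652 as the nearest coding gene. The other lay 26.2 kb downstream at the starts of the noncoding genes Gm38959 and 4833417C18Rik, and was the widest of all 31 regions in replicate 2, with 1455 bp against 838 bp in replicate 1. The total of 3 equals the median of protein-coding genes.

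Alpl (chr4:137741731-137796384), the gene of the tissue-nonspecific alkaline phosphatase, had 5 shared regions within 100 kb and none within 50 kb. Of these, 4 stood close together 57.3 to 68.4 kb upstream, around the start of Ece1, which encodes endothelin-converting enzyme, and Ece1 was the nearest coding gene for each. The region at the Ece1 start measured 545 bp across in replicate 1 and 432 bp across in replicate 2. The fifth, inside Usp48, lay 99.4 kb downstream and was the region nearest to the limit of the search from inside. The shared region nearest to that limit from outside was 101.1 kb from Ank.

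Close to Alpl the replicates did not coincide. Replicate 1 had 1 peak inside the gene, 195 bp wide, 7.11 kb from the low end, which is the far end of transcription. Replicate 2 had 1 peak 5834 bp beyond that end, 172 bp wide. These widths were at the 9.68th and the 3.55th percentile of their lists. On the same side, 10.9 kb from Alpl, replicate 1 had a wider peak of 489 bp, at the 63.1st percentile, which missed the replicate 2 peak by 4859 bp and lay 762 bp from the end of Rap1gap. Farther out, replicate 1 had a single peak of 257 bp 41.3 kb upstream and replicate 2 one of 188 bp 68.1 kb downstream. The table gives Alpl starts at 137796384 and 137766475. Neither had a peak of either list within 5 kb, and neither 300-base window, reaching from 250 bases before the start to 50 after it, holds either RUNX core spelling or the AP-1 core.

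Enpp1 (chr10:24637914-24712159), which makes pyrophosphate, had 2 shared regions, and both were nearest to the neighbouring gene Ccn2, which encodes a matricellular growth factor also called CTGF. One lay at the low end of Ccn2, 42.0 kb downstream of Enpp1, 528 bp across in replicate 1 and 698 bp across in replicate 2. This region was also on the promoter window of a long noncoding gene, Gm15270. The other lay 48.2 kb away, 460 bp across in replicate 1 and 758 bp across in replicate 2, and its midpoint was 6093 bp from the Ccn2 end. Inside Enpp1 there was no peak of either list. Downstream of it, replicate 1 alone had peaks of 283 bp at 56.8 kb and of 341 bp at 83.4 kb. Upstream of Enpp1, replicate 1 had a peak of 351 bp at 27.0 kb. Replicate 2 had peaks of 370 bp at 53.5 kb and of 653 bp at 66.1 kb, and the wider one, inside Enpp3, was the widest of the 24 peaks without a counterpart.

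Ank (chr15:27466677-27594909), the gene for pyrophosphate release, had 6 shared regions, and 4 of them lay upstream with Ank as their nearest coding gene. The closest ran from 876 to 274 bp upstream in replicate 1 (603 bp wide) and from 1070 to 600 bp upstream in replicate 2 (471 bp wide). Beyond it came regions at 47.3 kb (705 bp wide in replicate 1, 508 bp in replicate 2), at 60.2 kb (781 bp in replicate 1, 1011 bp in replicate 2) and at 84.8 kb (271 bp in replicate 1, 558 bp in replicate 2). No other member had more than 2 shared regions for which it was the nearest coding gene. With a reciprocal overlap of at least 50%, 3 of the 6 regions remained, and both the closest (277 bp common to peaks of 603 bp in replicate 1 and 471 bp in replicate 2) and the one at 84.8 kb were among those lost. Peaks above the median width alone also left 3 at Ank. On the downstream side, the regions at 35.8 and 86.1 kb lay at the starts of Otulin and Otulinl. The Otulinl region had the most unequal pair of all 31, with 940 bp in replicate 1 and 176 bp in replicate 2.

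Within the 128 kb body of Ank no region was shared. Replicate 1 had 1 peak there, 306 bp wide and 41.9 kb from the start, and replicate 2 had 2, of 563 bp at 70.3 kb and 203 bp at 110.3 kb. None of these 3 was within 28 kb of a peak of the other list. A further replicate 2 peak of 309 bp lay 1755 bp beyond the far end of Ank and 237 bp from the end of Otulin.

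Bglap (chr3:88383495-88384466) and Bglap2 (chr3:88377736-88378701) had no peak of either replicate inside them or within 25 kb. Their 4 shared regions lay at the ends of other genes. The one at the Pmf1 end was nearest, 508 bp across in replicate 1 and 789 bp across in replicate 2, and lay 25.4 kb from Bglap. The others were at Slc25a44 (728 bp in replicate 1, 700 bp in replicate 2), at Smg5 (806 bp in replicate 1, and peaks of 336 and 163 bp in replicate 2) and at Tsacc with Cct3 (929 bp in replicate 1, 882 bp in replicate 2). The region at Slc25a44 was also on the promoter window of a long noncoding gene, Gm33513. Near Sema4a a replicate 1 peak of 331 bp and a replicate 2 peak of 244 bp missed each other by 271 bp. The osteocalcin copies are similar in sequence, and how reads that map to several places were treated is not stated.

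Mgp, the gene of the calcification inhibitor, had the densest surroundings of the 8 genes, with 9 shared regions within 100 kb. Of all protein-coding genes, 93.9% had fewer and 3.66% had more, and the median was 3. Per 100 kb searched, Mgp had 4.43 shared regions against a median of 1.14 over all protein-coding genes. Mgp (gene span chr6:136872435-136875823) was also the member with the widest peak at its own end. The peak across its high-coordinate end was 1173 bp wide in replicate 1, at the 98.6th percentile of width in that list, and 854 bp in replicate 2, at the 92.3rd. It ran from 243 bp outside to 929 bp inside the gene in replicate 1, and from 401 bp outside to 452 bp inside in replicate 2. The promoter table used here has no entry for Mgp, so this end is described by coordinate.

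A second region lay 5271 bp beyond the same end of Mgp (chr6:136881094-136882032), 741 bp across in replicate 1 and 496 bp across in replicate 2. Next came a pair of regions at 22.1 and 24.5 kb on that side, with widths of 536 and 592 bp in replicate 1 and 755 and 628 bp in replicate 2. Erp27 was the nearest coding gene of both. A pair at 62.9 and 64.3 kb lay inside Arhgdib, and one at 89.5 kb was nearest to Pde6h. On the low side there were 2 regions, and both lay at the starts of other genes, H2aj at 63.9 kb and Wbp11 with BC049715 at 43.6 kb. So 7 of the 9 regions were nearer to another coding gene, and 2 had Mgp itself as the nearest.

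Fam20c (chr5:138755081-138810063), the secretory kinase gene, had 2 shared regions, one of them just upstream of its start. The replicate 1 peak, 524 bp wide, ran from 559 to 36 bp upstream. The replicate 2 peak, 546 bp wide, ran from 847 to 302 bp upstream. Their widths were close, yet their midpoints stood 277 bp apart, and 258 bp were common to both. Neither RUNX core spelling nor the AP-1 core occurs in the Fam20c stretch printed above, which says only that these letters are not in that window. The second region lay 60043 bp upstream, 806 bp across in replicate 1 and 907 bp across in replicate 2. Its nearest coding gene was A430033K04Rik, with an end 45668 bp from the midpoint of the region. Inside Fam20c there was 1 peak of replicate 2, 486 bp wide, whose nearest replicate 1 peak was 21.2 kb away. At 16.0 kb beyond the far end of Fam20c there was 1 peak of replicate 1, 217 bp wide.

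**Figure D2:**
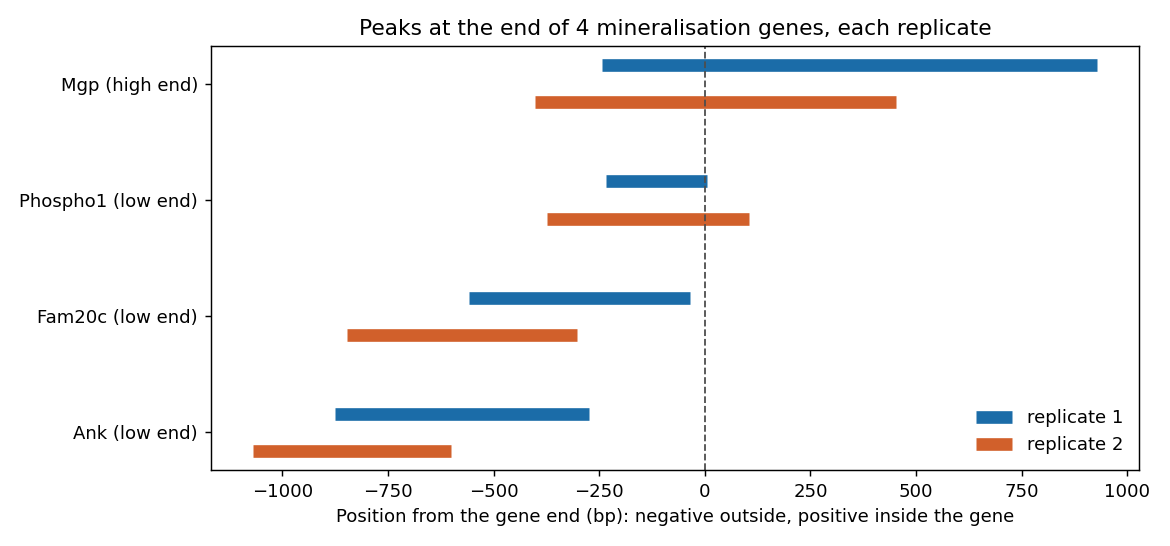
Peaks at the end of the 4 members with a shared region within 1 kb, as bars in bp from the gene end (0, dashed), negative outside and positive inside the gene; the upper bar of each gene is replicate 1 and the lower bar replicate 2. The Mgp bars cross the end and reach 929 and 452 bp into the gene, the Phospho1 bars just cross it, and the Fam20c and Ank bars stop 36 to 600 bp short of it.

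The short-range results depended on how much overlap between the replicates was asked for. The overlap at the Phospho1 start covered 49.8% of the replicate 2 peak, that at Fam20c 49.2% of the replicate 1 peak and 47.3% of the replicate 2 peak, and that at Ank 45.9% of the replicate 1 peak. At Mgp it covered 59.3% of the replicate 1 peak and 81.5% of the replicate 2 peak. With a reciprocal overlap of at least 50% in place of 1 bp, 1 of 8 members, Mgp, had a shared region within 10 kb, against 45.0% of protein-coding genes. With peaks above the median width alone, which is 395 bp in either list, 3 of 8 members did (36.3% of protein-coding genes), and Phospho1 was the one lost. Both combinations with the 10 kb distance were chosen after the data were seen. Over all 31 member regions, 23 reached the reciprocal overlap of 50% (74.2%), close to the 73.8% of all overlapping pairs in the lists.

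**Figure D3:**
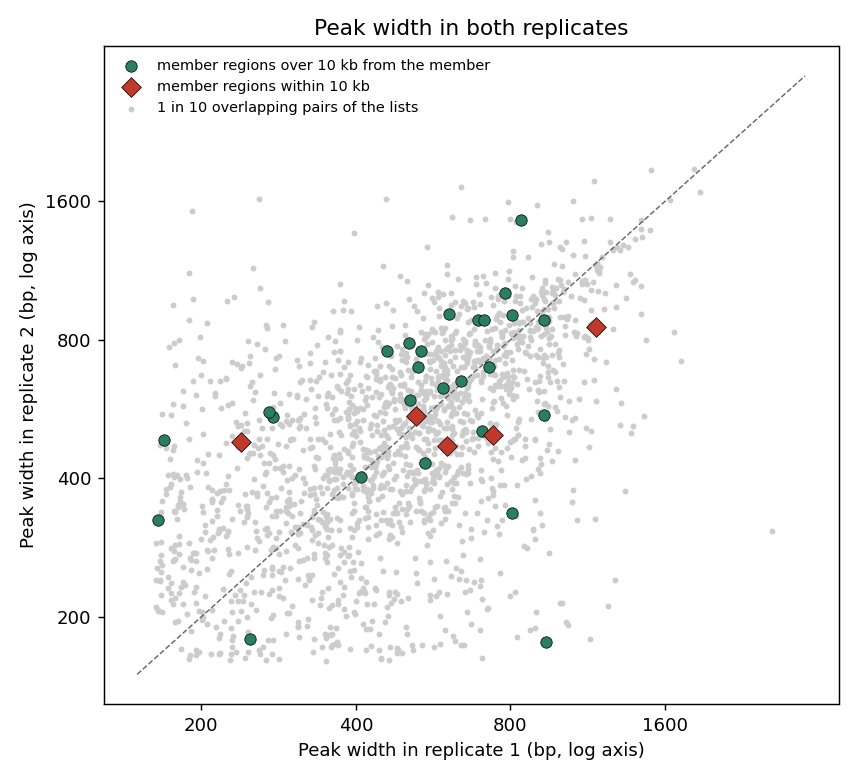
Width of the overlapping peaks in replicate 1 (x, bp, log axis) and replicate 2 (y, bp, log axis) for the 31 member regions and, in grey, for an evenly spaced subset of 1852 of the 18517 overlapping pairs of the lists; the dashed line marks equal width. The member regions run from 165 to 1173 bp in replicate 1 and from 176 to 1455 bp in replicate 2, within the cloud of grey points, which reaches wider peaks in both.

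The RUNX core TGTGGT occurred in promoters of members that had no peak there. Of the 6 members with a promoter window in the table, Bglap and Enpp1 held TGTGGT, as ACCACA with its first letter 132 and 144 bases before the start, and neither had a peak within 25 kb of that window. Over all 32851 windows of 300 bases, 16.8% held TGTGGT on either strand. Among the 7492 windows on a shared region 12.5% did, and among the others 18.0%. TGCGGT, which the Phospho1 window held, was in 6.45% of all windows, in 11.4% of those on a shared region and in 4.98% of the others. Windows on a shared region were richer in G and C (median 62.0%, against 50.3% off a shared region). The member windows ranged from 54.3% at the inner Alpl start to 80.7% at Fam20c, with 77.0% at Phospho1, 78.0% at Ank, 61.7% at Enpp1 and 56.7% at Bglap. TGANTCA was in 7.81% of all windows, in 5.01% of those on a shared region and in 8.64% of the others. A shared region lay on the promoter window of 2 of the 6 members, Phospho1 and Fam20c, against 33.0% of protein-coding genes in the table. The merged span of the peaks was counted, and at Fam20c the replicate 1 peak alone reached the window. The Fam20c peak of replicate 2 stood 52 bp from it.

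Most of the shared regions around the members, 23 of 31, were nearer to another coding gene, in some cases many kb from it. A member was the nearest coding gene for 8 of the 31 regions, which were 4 at Ank, 2 at Mgp and 1 each at Phospho1 and Fam20c. By this link 4 of 8 members had a region, against 44.4% of protein-coding genes. Of the 31 regions, 14 (45.2%) lay within 1 kb of the end of a coding gene, against 33.3% of all 18128 shared regions, and 13 (41.9%) lay on a promoter window of some gene, against 30.7%. The 31 were taken within 100 kb of a coding gene and the 18128 were not, so these shares are not like for like. The number of shared regions within 100 kb was 2 at Enpp1 and Fam20c, 3 at Phospho1, 4 at Bglap and Bglap2, 5 at Alpl, 6 at Ank and 9 at Mgp. Of all protein-coding genes, 53.4% had more than Enpp1 and Fam20c, and 14.8% had more than Ank.

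**Figure D4:**
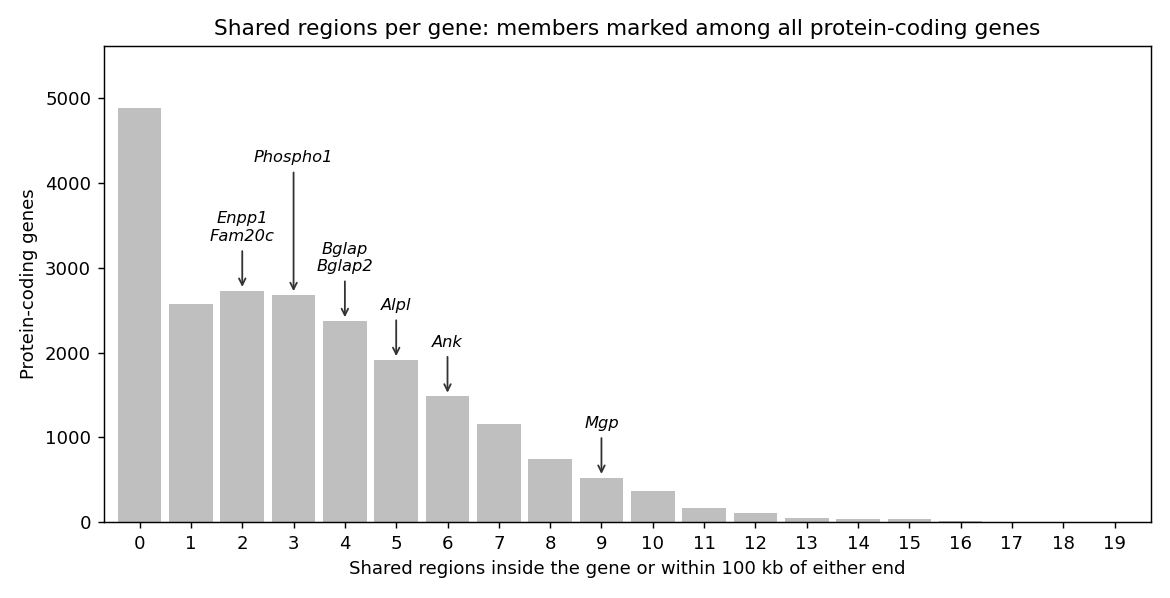
Number of protein-coding genes (y) by their number of shared regions inside the gene or within 100 kb (x), with arrows at the count of each member. Enpp1 and Fam20c stand at 2, below the median of 3, and Mgp at 9 stands in the upper tail, which 3.66% of genes exceed.

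Most other genes of mineralisation had a shared region at short range. Of 25 such genes, 20 (80.0%) had one within 10 kb, against 52.8% of protein-coding genes, and all 25 had one within 100 kb, against 77.7%. The list was chosen with earlier results of these data known, and it was not tested against the members or against all genes. A long gene also has more room to hold a region. All 6 genes of phosphate and pyrophosphate handling were reached within 10 kb. So were 3 of 4 matrix vesicle genes, 6 of 8 genes of mineral-binding proteins, 3 of 5 genes of vitamin K dependent Gla proteins and their enzymes, and both other genes of the FAM20 family. Some of these regions were nearer to another coding gene. Linked by the nearest coding gene end, 19 of the 25 genes had a region, against 44.4% of protein-coding genes.

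Anxa5, an annexin gene of matrix vesicles, had 4 regions within 10 kb, and the one across its high end measured 576 bp across in replicate 1 and 415 bp across in replicate 2. Slc20a1, which encodes a sodium-phosphate cotransporter, had 4, including one across its low end of 824 bp in replicate 1 and 1217 bp in replicate 2. Ggcx, which encodes the carboxylase that makes Gla residues, had 4, of which 2 were nearer to Mat2a. Anxa2 had 3 regions, all inside the gene, and the widest measured 1075 bp in replicate 1 and 1112 bp in replicate 2. Sparc, which encodes osteonectin, Nt5e, which encodes an enzyme that makes adenosine, and Dmp1 had 3 each. Fam20a, the relative of Fam20c, had 2, and the wider was 1302 bp in replicate 1 and 845 bp in replicate 2. The 5 genes without a region within 10 kb, named after their values were seen, were Ahsg, Anxa6, Bglap3, Ibsp and Ucma, with the nearest 20.5 to 33.2 kb away. Bglap3, the third gene of the osteocalcin group, was 32.1 kb from its nearest, and like Bglap and Bglap2 it had no peak of either list within 10 kb.

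**Figure D5:**
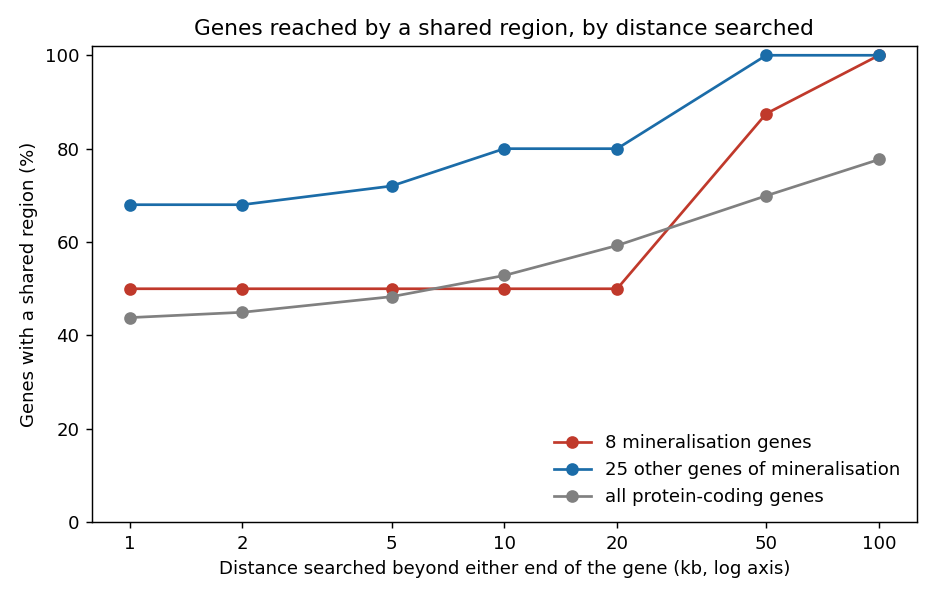
Share of genes (y, %) with a shared region inside the gene or within the distance searched beyond either end (x, kb, log axis), for the 8 members, 25 other genes of mineralisation and all protein-coding genes. The members stay at 4 of 8 from 1 to 20 kb, where all protein-coding genes rise to 59.3% and the other mineralisation genes to 80.0%.

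The lists hold called peaks only, so a gene without one may carry signal below the calling limit. Position near a gene does not show regulation of it.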

How the data were processed

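The 2 CUT&Tag libraries of RUNX2 in untreated MC3T3-E1 cells were analysed as replicates of 1 group. The submitters' processing notes name fastp 0.19.6, Bowtie2, deepTools and the build GRCm38 (mm10), without roles. For the peak caller, its threshold and any control, nothing is stated in the labels or files. The authors deposited 1 peak list per replicate, with 5 columns read as number, chromosome, start, end and width in bp (the width equals end minus start plus 1 in every line). Depth is unknown.

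Gene spans, strands and promoter windows came from RefSeq (GRCm38.p6), and 6 of the 8 members had a window. Overlapping peaks (at least 1 bp) were merged, distances were taken from the edge of the merged region to the gene, and the nearest coding gene from its midpoint. For a region with several peaks of a list the widest was used. Counts were checked against bedtools 2.31.1 and tested on simulated data (Python 3.11.15, pandas 2.3.3). No test was run, because there is 1 group; shares of all protein-coding genes stand beside the members' counts. Members and lists were chosen with earlier results of these data known. Named are all members, the genes nearest to their regions and 8 listed mineralisation genes taken in order of their number of regions within 10 kb, ties by symbol (Fam20a, the last, ties with 7 others). The 5 listed genes without a region within 10 kb were added after their values were seen. Alternatives were other distances, a reciprocal overlap of 50%, wider peaks, nearest-gene links, each replicate alone and other motif letters.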

Additional observations from a re-analysis of the deposited data

How the results depend on the processing

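No paired analysis was possible because there is 1 group. Counts depended mainly on the distance searched. Inside the span alone, 2 members had a shared region (41.4% of protein-coding genes), with 2 regions in all and a median of 0 per member. Of the peaks there, 4 of 9 (44.4%) overlapped the other list. Within 10 kb these values were 4 members (52.8% of protein-coding genes), 5 regions, a median of 0.5 and 10 of 17 peaks (58.8%). Within 50 kb there were 17 regions. Given the nearest coding gene end, 4 members had a region, with 8 regions and a median of 0.5. A reciprocal overlap of 50% lowered the percent of overlapping peaks to 52.9%, and keeping peaks above their list's median width raised it to 82.1%. All 8 members kept a region within 100 kb under these last 2 settings and with either replicate alone. Among protein-coding genes 81.6% had a peak within 100 kb with replicate 1 and 82.0% with replicate 2. For the reciprocal overlap and the wider peaks that share was not computed, and with an overlap of 1 bp it was 77.7%. With either replicate alone, the peaks within 100 kb numbered 43 to 44, the median per member was 6 to 6.5, and 5 members had a peak within 10 kb (60.8% of protein-coding genes with each list). Alternatives on the 10 kb count were chosen after the data were seen, and with a reciprocal overlap of 50% it was 1 member. With TGTGGTT in place of TGTGGT, 0 of the 6 members with a promoter window held the letters, against 5.27% of all windows. Single members' counts moved beyond the limit for a similar count (1.5 times) for 8 of 8 within 10 kb, for 4 within 50 kb, for 2 under the reciprocal overlap (Ank from 6 to 3, Fam20c from 2 to 1) and for 2 with wider peaks (Ank from 6 to 3, Alpl from 5 to 3). The lists carry no height, so weak and strong peaks could be separated by width alone.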
